A study of Sus scrofa with 6 samples.

Results

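Selective autophagy receptors are the adaptor proteins that pick a cargo and hand it to the growing autophagosome, the double membrane that carries it to the lysosome. Each receptor binds its cargo on one side and, on the other, the small ATG8 proteins (the LC3 and GABARAP families) that coat the autophagosome membrane. Some receptors are membrane proteins of the endoplasmic reticulum (ER) and take pieces of that organelle into the autophagosome, which is called ER-phagy. Others recognise ubiquitin chains on aggregated proteins, damaged mitochondria or bacteria, and in the intestinal epithelium they take part in the defence against invading microbes.

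The 8 receptor genes CCPG1, RETREG1, TEX264, SQSTM1, TAX1BP1, OPTN, NBR1 and TOLLIP were examined here, out of 31908 Ensembl pig gene IDs in the deposited values. They were picked by gene name, with earlier results of these data known. All 8 were found under their own symbol, with 1 gene ID each, and all 8 passed the limit on low values, a mean of at least 1 TPM (the authors' unit of level, already divided by transcript length and set relative to the total of the library) over the 6 libraries. The study asked how chenodeoxycholic acid (CDCA), a primary bile acid, acts on the growth of IPEC-J2 cells, a non-transformed epithelial line from the jejunum of newborn piglets. The CON group was 3 libraries from cells given PBS, and the CDCA group was 3 libraries from cells given 50 μM CDCA, both for 24 h. All 6 libraries came from this 1 line and 1 time point, and no genetic change was made in either group. The paper calls the libraries of a group biological replicates. Nothing in the labels says that the 3 libraries of a group came from separate cultures, so p-values here measure only the spread between these libraries.

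The listed transcripts summed to 351770 to 366073 TPM per library, which is below a full set of TPM for a reason not settled here, and without read counts the depth behind a value is unknown. Of the epithelial markers set for the check of the label, KRT8 averaged 226 TPM in CON and 208 TPM in CDCA, and EPCAM 122 and 160 TPM. The claudins of the same list moved in opposite directions, as CLDN1 fell from 474 to 202 TPM (limma FDR 1.8e-05) and CLDN4 rose from 225 to 806 TPM (limma FDR 3.7e-06). CDH1, OCLN and VIL1 were listed under 1 TPM in every library. Of 16 matched markers of other cell types, 13 had means under 1 TPM, and the whole list summed to 22.3 to 24.8 TPM in CON and 23.4 to 25.6 TPM in CDCA. The leukocyte marker PTPRC and the fibroblast marker PDGFRA reached at most 0.01 TPM in any library. The markers over 1 TPM were LYZ, PECAM1 and CD68. CD68, a lysosomal glycoprotein, averaged 0.0867 TPM in CON and 4.84 TPM in CDCA, and so reached the limit on low values only through CDCA. PECAM1 fell from 1.92 to 1.22 TPM, LYZ did not pass, and the other 13 were not tested. Any part of these markers in the results below was not tested. The 13 mRNAs encoded in mitochondrial DNA made up 13.8% to 15% of the summed TPM of a CON library, against 2.90% to 3.45% of that of a CDCA library. TPM are shares of a total, so a fall of some genes adds to the values of the others. The fold changes of the receptors and the counts of the gene lists below were therefore also computed with totals of the listed transcripts that leave these mRNAs out. That setting lowered the median log2 fold change of all tested genes by 0.13, from 0.05 to -0.08. As the listed TPM fall short of a full set, how far this shift matches the effect of the mtDNA share was not tested. In such bulk libraries, a change in the number of cells that express a gene and a change in its RNA per cell cannot be told apart.

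Of the 8 receptor genes, 5 had a higher level in CDCA than in CON with an FDR under 0.05 (limma on log2(TPM + 1), Benjamini-Hochberg over all genes tested), namely SQSTM1, TAX1BP1, OPTN, CCPG1 and RETREG1. None was lower, by the FDR or at an unadjusted p under 0.05 in limma, the only tool run on these values (26.7% of all tested genes were lower and 32.3% higher at that p). The 5 genes make up 62.5% of the receptors, where 29.3% of all 8708 tested genes were higher by the same rule and 23.9% were lower. The same 5 receptors had every CDCA library above every CON library, which held for 33.7% of all tested genes. With a log2 fold change over 1 required as well, SQSTM1 and OPTN remained, or 25% of the receptors against 3.51% of all tested genes. That count was 1, SQSTM1 alone, without CON replicate 3, without CDCA replicate 3, or with totals that leave out the mtDNA-encoded mRNAs. The median log2 fold change of the 8 receptors was 0.48, against 0.05 for all tested genes. With totals that leave out the mtDNA-encoded mRNAs, the count of receptors with an FDR under 0.05 was again 5 higher and 0 lower, where 20.1% of all genes tested were higher and 31.9% lower (1751 and 2770 genes, against 2550 and 2085 with the totals as deposited).

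**Figure D1:**
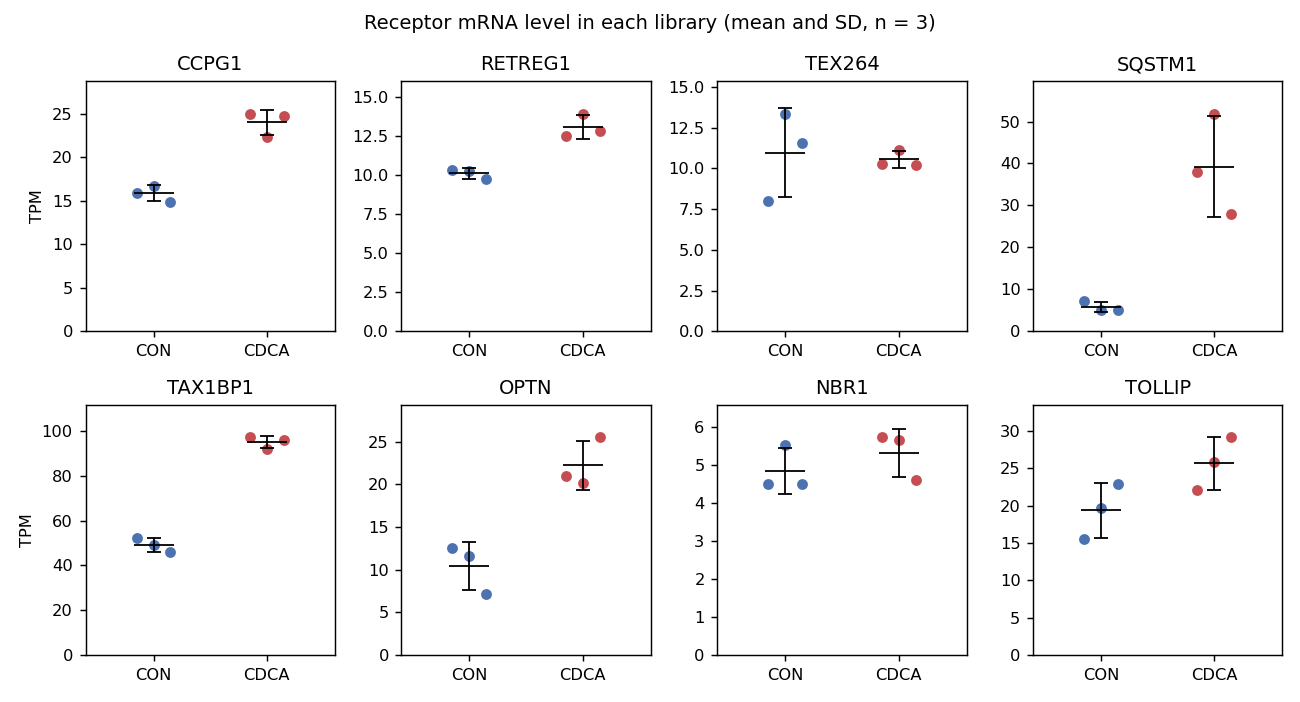
Level of each of the 8 receptor mRNAs in TPM (vertical axis, from 0) in the 3 CON and 3 CDCA libraries, in the order replicate 1, 2 and 3 from left to right, with the mean and SD. The CDCA points lie wholly above the CON points for CCPG1, RETREG1, SQSTM1, TAX1BP1 and OPTN, and the groups overlap for TEX264, NBR1 and TOLLIP.

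Among the ER-phagy receptors, CCPG1 and RETREG1 rose, and TEX264 did not pass the test. CCPG1 (ENSSSCG00000004610) encodes an ER membrane protein that binds both ATG8 proteins and RB1CC1, a subunit of the kinase complex that starts autophagosomes, and its gene is known to respond to ER stress. The CON libraries held 15.90, 16.73 and 14.91 TPM of CCPG1 mRNA, and the CDCA libraries 25.01, 22.30 and 24.70 TPM. The lowest CDCA library, replicate 2, was thus well above the highest CON library, also replicate 2. The log2 fold change was 0.57 (95% interval 0.41 to 0.73, limma FDR 0.00055), and 13.7% of all tested genes had a larger one. With totals that leave out the mtDNA-encoded mRNAs it was 0.42 (limma FDR 0.003).

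RETREG1 (ENSSSCG00000016792), also known as FAM134B, encodes a reticulon-type protein that bends ER sheets before they are taken up. RETREG1 mRNA stood at 10.30, 10.27 and 9.72 TPM across the CON libraries, against 12.50, 13.92 and 12.81 TPM across the CDCA libraries. The groups lay apart by a narrow gap, and the spread within CON was small, with a coefficient of variation of 3.23%. The log2 fold change was 0.34 (95% interval 0.19 to 0.49, limma FDR 0.0038), and it was 0.20 (limma FDR 0.024) with totals that leave out the mtDNA-encoded mRNAs. Those values are for the sum of its listed transcripts, and for the highest of them alone the log2 fold change was 0.31 (limma FDR 0.063).

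TEX264 (ENSSSCG00000011424) encodes a single-pass ER membrane protein with a long flexible tail that reaches the autophagosome past the ribosomes. The CON libraries held 7.98, 13.36 and 11.56 TPM of TEX264 mRNA, and the CDCA libraries 10.28, 11.13 and 10.23 TPM. The CDCA libraries lay close together within the wide range of CON, in which replicate 1 was low. The log2 fold change was -0.03 (95% interval -0.42 to 0.37, limma FDR 0.91), so a rise as large as that of RETREG1 lay within the interval.

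The ubiquitin-binding receptors held the largest rises of the 8 genes. SQSTM1 (ENSSSCG00000014016) encodes sequestosome 1, the receptor that gathers ubiquitinated proteins into condensates, binds KEAP1, the inhibitor of the transcription factor NFE2L2, and is itself degraded by autophagy. SQSTM1 mRNA stood at 7.20, 5.06 and 5.0 TPM across the CON libraries, against 38.02, 51.88 and 27.88 TPM across the CDCA libraries. Every CDCA library was far above every CON library, and the CDCA libraries also differed among themselves more than for any other receptor, with a coefficient of variation of 30.7%. The mean rose from 5.75 ± 1.25 to 39.3 ± 12 TPM (SD, n = 3 each), a ratio of 6.82. The log2 fold change was 2.55 (95% interval 2.0 to 3.10, limma FDR 0.00017), and 0.23% of all tested genes had a larger one.

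TAX1BP1 (ENSSSCG00000016692) encodes a receptor that joins SQSTM1 and NBR1 at ubiquitin condensates and recruits the autophagy machinery, and that also restrains NF-κB signaling. The CON libraries held 52.32, 49.02 and 46.08 TPM of TAX1BP1 mRNA, and the CDCA libraries 97.22, 91.98 and 95.98 TPM. The groups were far apart and each was tight, with coefficients of variation of 6.35% and 2.88%. The mean went from 49.1 ± 3.12 to 95.1 ± 2.74 TPM (SD, n = 3 each), a ratio of 1.93. Its log2 fold change of 0.94 (95% interval 0.81 to 1.07) had the lowest FDR of the 8 receptors, 3.1e-05 by limma, although it stayed under the limit of 1.

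OPTN (ENSSSCG00000023247) encodes optineurin, which binds ubiquitin on damaged mitochondria and bacteria and is switched on by the kinase TBK1. OPTN mRNA stood at 12.51, 11.57 and 7.19 TPM across the CON libraries, against 20.95, 20.21 and 25.51 TPM across the CDCA libraries. The groups did not overlap, with CON replicate 3 the lowest library and CDCA replicate 3 the highest. The log2 fold change was 1.05 (95% interval 0.58 to 1.52, limma FDR 0.0043). It kept an FDR under 0.05 in every alternative run, but it was 0.83 without CON replicate 3, 0.95 without CDCA replicate 3 and 0.91 with totals that leave out the mtDNA-encoded mRNAs, all under the limit of 1.

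NBR1 (ENSSSCG00000030211) encodes a receptor of domain layout like that of SQSTM1, with which it co-assembles. NBR1 had the lowest mean of the 8 genes. The CON libraries held 4.51, 5.54 and 4.49 TPM of NBR1 mRNA, and the CDCA libraries 5.73, 5.66 and 4.60 TPM. The groups overlapped. The log2 fold change was 0.11 (95% interval -0.15 to 0.38, limma FDR 0.43). The upper end of the interval lay under the lower end of that of SQSTM1, TAX1BP1, OPTN and CCPG1.

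TOLLIP (ENSSSCG00000033033) encodes a ubiquitin-binding adaptor of endosomes that also damps Toll-like receptor signaling. TOLLIP mRNA stood at 15.51, 19.68 and 22.85 TPM across the CON libraries, against 22.05, 25.89 and 29.13 TPM across the CDCA libraries. The groups overlapped only by the highest CON library and the lowest CDCA library. Its log2 fold change of 0.40 (95% interval 0.03 to 0.77) did not pass the test (limma FDR 0.066), and it passed with CON replicate 3 left out (0.52, FDR 0.031) or with CDCA replicate 1 left out (0.50, FDR 0.047).

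**Figure D2:**
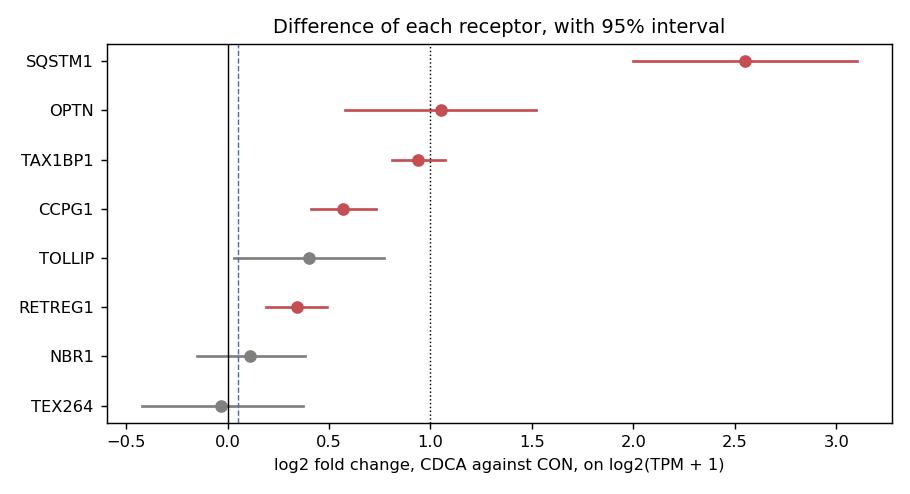
Difference of each receptor between CDCA and CON as log2 fold change on log2(TPM + 1) (horizontal axis), with its 95% interval from limma; red marks an FDR under 0.05 and grey one of 0.05 or above, the solid line is 0, the dashed line the median of all tested genes (0.05) and the dotted line a value of 1. SQSTM1 stands apart at 2.55, and TEX264 is the only receptor below 0.

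The order of the receptors by level differed between the groups. In TPM, a scale per length, TAX1BP1 was the highest in both groups and NBR1 the lowest. SQSTM1 was the seventh of the 8 in CON, with a range that overlapped that of NBR1, and the second in CDCA, with a range that overlapped that of TOLLIP. In CON, TOLLIP and CCPG1 overlapped in level, and so did TEX264, OPTN and RETREG1, whereas CCPG1 lay above TEX264 in all 3 libraries. In CDCA, the range of SQSTM1 overlapped that of TOLLIP, TOLLIP overlapped CCPG1, and CCPG1 overlapped OPTN. OPTN lay above RETREG1 without overlap, and TEX264 and NBR1 followed in that order, again with no overlap between neighbours.

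The 8 genes together summed to 122 to 131 TPM in CON and to 231 to 243 TPM in CDCA, a ratio of means of 1.86 (two-sided exact permutation p = 0.1, which no 3 libraries against 3 can go below). TAX1BP1 made up 42.2% of the added TPM and SQSTM1 30.8%, followed by OPTN with 10.8% and CCPG1 with 7.5%. The share of SQSTM1 in the sum went from 4.55% ± 1 (SD, n = 3) to 16.6% ± 4.64 (SD, n = 3), with no overlap between the groups. That of TAX1BP1 was 38.9% ± 2.24 (SD, n = 3) in CON and 40.5% ± 2.26 (SD, n = 3) in CDCA, with overlapping libraries. CCPG1 took a smaller share of the sum in every CDCA library (9.18% to 10.8%) than in any CON library (12.2% to 12.7%), although its own level was higher.

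A ratio of 2 genes within a library does not depend on how the library is scaled, and so is free of the mtDNA share. Relative to CCPG1, SQSTM1 went from 0.453, 0.302 and 0.335 in the CON libraries to 1.52, 2.33 and 1.13 in the CDCA libraries, so the gene with the lower level became the one with the higher level in all 3. TAX1BP1 went from 2.93 to 3.29 times CCPG1 in CON to 3.89 to 4.12 times in CDCA, and OPTN from 0.482 to 0.787 times to 0.838 to 1.03 times. NBR1 and TEX264 moved the other way, each with every CDCA ratio below every CON ratio. The ratios of RETREG1 and TOLLIP to CCPG1 overlapped between the groups. The ratio to CCPG1 did not overlap, in either direction, for 69.9% of all other tested genes, so 5 of 7 is close to the background. For each of the 5 ratios that did not overlap, the exact permutation test, two-sided, gave p = 0.1, the smallest possible with 3 libraries against 3, or 0.14 after Benjamini-Hochberg adjustment over the 7 ratios, so none could pass 0.05.

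**Figure D3:**
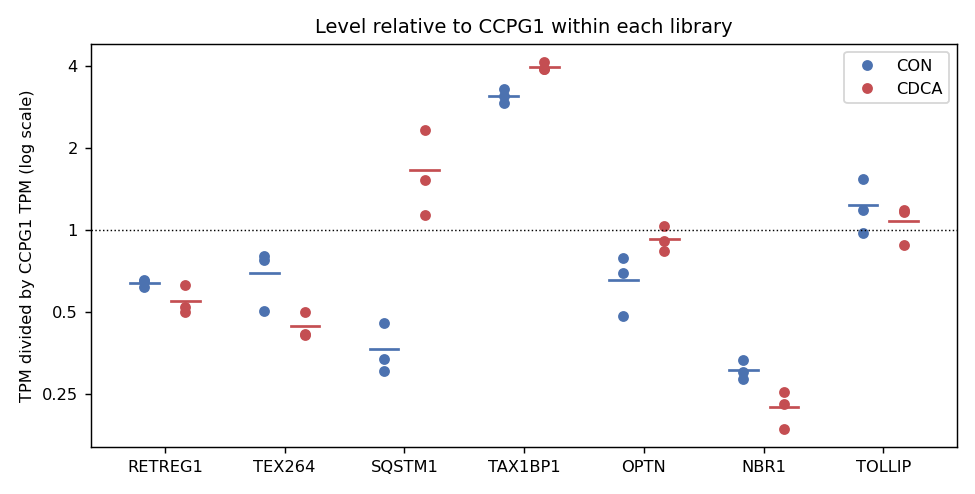
TPM of each receptor divided by the TPM of CCPG1 in the same library (vertical axis, log scale), for CON in blue and CDCA in red, with bars at the means; the dotted line marks the level of CCPG1. SQSTM1 crosses that line, from 0.302 to 0.453 in CON to 1.13 to 2.33 in CDCA.

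The deposited values list several transcripts per gene without transcript names, 31 in all for the 8 receptors, of which 2 were at 0 in every library. Taken one by one in a fit over all 12205 listed transcripts with a mean of at least 1 TPM, 19 could be tested, and 8 were higher in CDCA with an FDR under 0.05, 0 lower and 11 did not pass (limma). Of all tested transcripts, 23.1% were higher by that rule. A transcript can reach 1 TPM through the group where it is high alone, and among the 14 with a mean of at least 1 TPM in both groups, 6 were higher and 0 lower, against 23.2% and 18.9% of all such transcripts. The 3 most abundant transcripts of TAX1BP1 passed and went from 21.7 to 45.6 TPM, from 17.3 to 30.2 TPM and from 8.56 to 15.7 TPM, each with groups that did not overlap. The fourth averaged 0.587 TPM in CON and 2.23 TPM in CDCA, and so was tested only through CDCA. The main transcript of SQSTM1 passed, from 5.5 ± 1.49 to 37.2 ± 12.6 TPM (SD, n = 3 each). The other detected one averaged 0.257 TPM in CON and 2.09 TPM in CDCA, and was likewise tested only through CDCA. The main transcript held 89.4% to 100% of the SQSTM1 level in CON and 89% to 96.6% in CDCA.

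For CCPG1, the most abundant transcript passed (7.19 to 11.7 TPM, log2 fold change 0.63, limma FDR 0.0012), and the next 2 did not (0.41 with an FDR of 0.051, and 0.31 with an FDR of 0.1). None of the 3 tested transcripts of RETREG1 passed by itself. The third of them averaged 0.807 TPM in CON and 1.2 TPM in CDCA, and so was tested only through CDCA. Of the transcripts of OPTN only the main one was tested, and it passed with a log2 fold change of 1.03 (limma FDR 0.011). The second transcript of TEX264 was listed at 1.01 to 1.19 TPM in CON and at 0.57 to 0.59 TPM in CDCA, below the limit for a test. The second transcript of TOLLIP had 0, 0 and 2.84 TPM in the CON libraries, against 0, 2.90 and 8.54 TPM in the CDCA libraries, so that the TOLLIP sum in the highest library of each group rests in part on it. The share of the most abundant transcript did not overlap between the groups for TAX1BP1 (44.3% ± 0.793 in CON and 48% ± 1.29 in CDCA, SD, n = 3) and TEX264 (89.9% ± 2.22 and 94.5% ± 0.365, SD, n = 3), each with an exact permutation p of 0.1, or 0.4 adjusted over the 8 receptors. Among all tested genes with several listed transcripts, that share did not overlap for 19%, so 2 of 8 is close to the background.

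**Figure D4:**
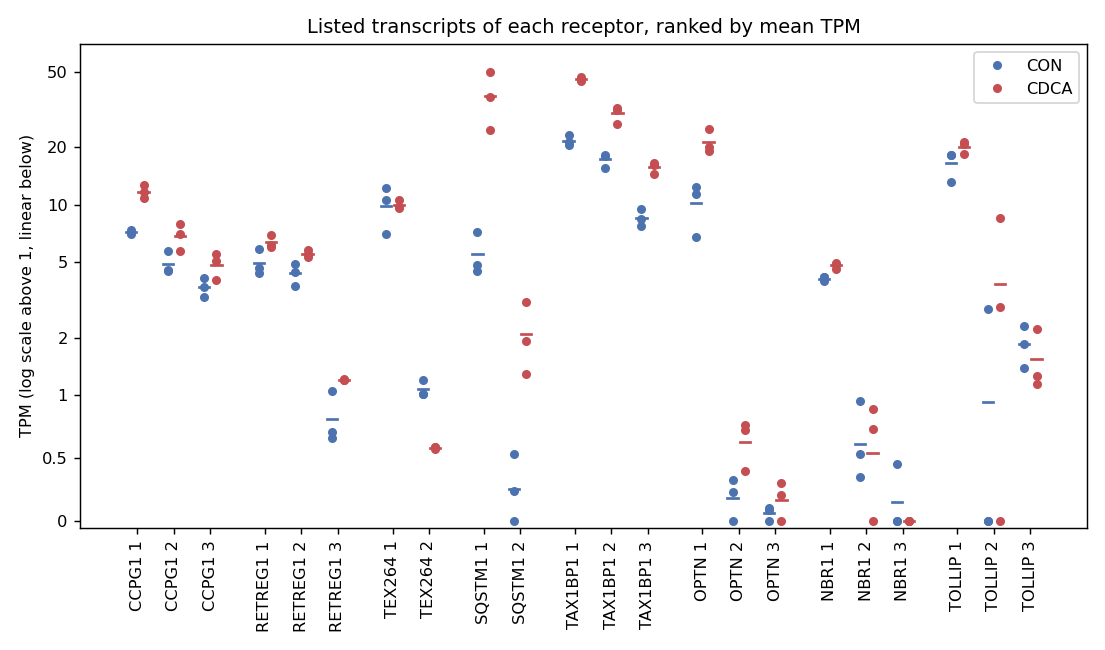
TPM of up to 3 listed transcripts of each receptor, ranked by mean TPM (horizontal axis; the number after the name is the rank), in the CON (blue) and CDCA (red) libraries, with bars at the means; the vertical axis is linear up to 1 TPM and logarithmic above. The leading 3 transcripts of TAX1BP1 and both detected ones of SQSTM1 are higher in every CDCA library.

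In the RefSeq annotation of the pig assembly Sscrofa11.1, CCPG1 overlaps 3 other genes and SQSTM1 and NBR1 overlap 1 each, while the other 5 receptor genes overlap none. Whether the libraries kept the strand is not given in the sources used here, so reads of overlapping genes may not have been told apart.

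The genes whose profile was most like that of CCPG1 were sought among 7979 tested genes with a symbol, by the root mean square difference of log2(TPM + 1), less the CON mean, over the 6 libraries. The nearest were NCKAP1 (a subunit of the actin-regulating WAVE complex), at 0.0199 log2 units, RNF214 (0.0256), EML2 (0.0346), DHDDS (0.0372) and IFNE (0.0429). NCKAP1 had 48.04, 48.27 and 43.65 TPM in the CON libraries, against 72.03, 65.33 and 72.04 TPM in the CDCA libraries. The ratio of means was 1.5 for NCKAP1, beside 1.51 for CCPG1. It was 1.53 for RNF214, 1.49 for EML2, 1.89 for DHDDS and 1.6 for IFNE. DHDDS and IFNE were weak, with CON means of 1.08 and 3.32 TPM, and log2(TPM + 1) understates the fold of weak genes. None of the other receptors was near: RETREG1 came closest at 0.188 log2 units and rank 1177, and SQSTM1 lay farthest at 1.44 log2 units and rank 7806.

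The genes that work with the receptors were taken as 4 lists. A gene can reach the limit on low values through the group where it is high alone, so each count is also given for genes whose mean was 1 TPM or more in both groups, of which 29.4% were higher and 24.1% lower over all genes. Of 20 further selective autophagy receptors, 18 were matched and 17 tested, of which 8 were higher, 2 lower and 7 did not pass (limma FDR under 0.05), with a median log2 fold change of 0.11. Over all tested genes, 29.3% were higher and 23.9% lower by this rule, the shares against which the counts of each list are to be read. Of the 16 with both means at or above the limit, 7 were higher and 2 lower, with a median of 0.06. With totals that leave out the mtDNA-encoded mRNAs the split was 3 higher and 4 lower, where over all genes it was 20.1% and 31.9%. Its largest changes went both ways. BNIP3, a mitophagy receptor of the outer mitochondrial membrane, fell from 9.27 ± 0.159 to 2.93 ± 0.312 TPM (SD, n = 3 each), a log2 fold change of -1.39 (limma FDR 3.3e-05). CALCOCO1, an ER-phagy and Golgi-phagy receptor, rose from 2.78 ± 0.303 to 6.56 ± 1.14 TPM (SD, n = 3 each), a log2 fold change of 0.99 (limma FDR 0.00091). CALCOCO2, the bacterial and mitochondrial receptor also called NDP52, rose from 6.95 ± 1.73 to 11.5 ± 2.41 TPM (SD, n = 3 each), with an FDR of 0.028 by limma.

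Of the 6 ATG8 genes, to whose products the receptors bind, 4 were tested and 3 rose (29.3% of all tested genes did), all 4 with both means at or above the limit. GABARAP rose from 187 ± 6.26 to 314 ± 7.58 TPM (SD, n = 3 each), MAP1LC3B from 158 ± 10.4 to 227 ± 17.5 TPM, and MAP1LC3A from 23 ± 2.4 to 52.7 ± 3.07 TPM, the last with a log2 fold change of 1.16 (limma FDR 6.2e-05). GABARAPL2 had 74.1 ± 3.6 TPM with PBS against 67 ± 6.83 TPM with CDCA (SD, n = 3 each) and did not pass, though with totals that leave out the mtDNA-encoded mRNAs it was called lower. MAP1LC3C and GABARAPL1 were listed at or near 0 in every library. The summed level of the list went from 422 to 458 TPM in CON to 642 to 674 TPM in CDCA, above the summed level of the 8 receptors in each group.

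Of 18 kinases and binding partners of the receptors, 16 were tested, and 10 were higher, none lower and 6 did not pass (limma FDR under 0.05), with a median log2 fold change of 0.52, where 29.3% of all tested genes were higher and 23.9% lower. Of the 15 with both means at or above the limit, 10 were higher and none lower. With totals that leave out the mtDNA-encoded mRNAs, 8 of the 16 tested were higher and 1 lower, where over all genes 20.1% were higher and 31.9% lower. At an unadjusted p under 0.05, 11 were higher and 1 lower, against 32.3% and 26.7% of all tested genes. The 1 lower was ATG101, from 2.97 to 1.81 TPM (log2 fold change -0.52, limma FDR 0.056). ATG13 did not pass (0.20, limma FDR 0.31). ULK1, the kinase that starts autophagosome formation, rose from 6.92 ± 0.181 to 19.3 ± 1.22 TPM (SD, n = 3 each), and its relative ULK2 from 12.8 ± 0.673 to 23.5 ± 0.205 TPM. RB1CC1, the subunit that CCPG1 and TAX1BP1 bind, rose from 6.62 ± 0.168 to 15.9 ± 0.887 TPM (SD, n = 3 each), a log2 fold change of 1.14 (limma FDR 2.4e-05).

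The last list held 10 transcription factors known to drive receptor genes under ER stress, lysosomal or oxidative stress. They were listed under 11 gene IDs, of which 10 were tested: 8 were higher, none lower (also none lower at an unadjusted p under 0.05), and 2 did not pass, with a median log2 fold change of 0.77 by limma, where again 29.3% of all tested genes were higher and 23.9% lower. Of the 9 with both means at or above the limit, 7 were higher and none lower, with a median of 0.76. With totals that leave out the mtDNA-encoded mRNAs, 7 of the 10 tested were higher and none lower, where over all genes 20.1% were higher and 31.9% lower. DDIT3, the ER stress factor CHOP, was listed under 2 gene IDs. It rose from 13.4 ± 0.903 to 208 ± 20.3 TPM (SD, n = 3 each) under one. The other averaged 0.223 TPM in CON and 2.09 TPM in CDCA, and was tested only through CDCA. ATF6, an ER-bound factor of the unfolded protein response, rose from 15.2 ± 3.12 to 28.5 ± 4.97 TPM (SD, n = 3 each), with an FDR of 0.0061 by limma. ATF4, the main factor of the amino acid response, was listed at 0 to 0.04 TPM in all 6 libraries and was not tested. The listed transcripts fall short of a full set of TPM, so these values do not settle whether ATF4 mRNA was absent from the cells. TFEB, the best known factor of lysosomal genes, had 1.4 ± 0.62 TPM with PBS against 1.22 ± 0.165 TPM with CDCA (SD, n = 3 each) and did not pass. Some genes were named here after their values were seen. They were TFEB and ATF4, the ATG8 genes GABARAPL2, MAP1LC3C and GABARAPL1, and ATG101 and ATG13 of the kinases and partners.

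**Figure D5:**
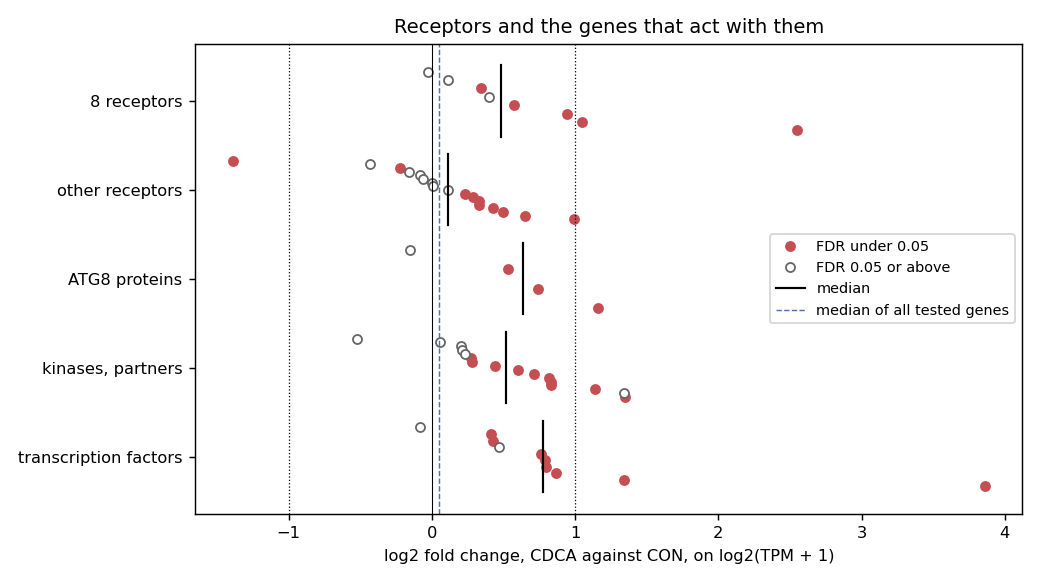
Log2 fold change of CDCA against CON on log2(TPM + 1) (horizontal axis) for each tested gene of the 8 receptors and of the 4 lists; filled red points have an FDR under 0.05, open points do not, black bars are the list medians, the dashed line is the median of all tested genes (0.05), and the dotted lines are at -1 and 1. The medians of the receptors (0.48), ATG8 genes (0.63), kinases and partners (0.52) and transcription factors (0.77) lie to the right of the dashed line, and that of the further receptors is 0.11.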

How the data were processed

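RNA of 6 IPEC-J2 libraries (3 CON, 3 CDCA) was sequenced by the authors on an Illumina instrument and quantified with RSEM. The deposited values are TPM for 63041 listed transcripts of 31908 gene IDs. The submitters' processing notes name Bowtie 0.12.2 and the mouse build mm10, although the gene IDs are of the pig; the pig annotation is not given in the sources used here, so no coordinates are printed. Groups came from the sample titles.

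TPM were summed per gene ID. Receptors were matched by deposited gene name, and lists by symbol (a table of Ensembl IDs, then the deposited name; 17501 IDs had one). The 8708 genes that averaged 1 TPM or more over the libraries were fitted in R 4.3.3 with limma 3.58.1 (trend) on log2(TPM + 1), after the fit was tested on simulated data. A fold change on this scale understates that of weak genes. The authors used edgeR, which needs counts. The receptors and lists were chosen with earlier results of these data known; named were all receptors, the 3 largest passing changes of each list, passing changes over 1, the 5 genes nearest to CCPG1, and the markers; genes outside this rule are said to have been named later.

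The fit of single transcripts, the counts of features with a mean of at least 1 TPM in both groups, and the alternatives for the count of receptors past a log2 fold change of 1, were added after seeing the data. Sequences of the receptors were not analysed here.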

Additional observations from a re-analysis of the deposited data

How the results depend on the processing

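The alternatives were no filter on low values, a pseudocount of 0.1 TPM, the replicate number as a block, 3 other scalings, the highest listed transcript, limma without a trend, and each library left out in turn. The counts of receptors higher (4 to 6) and lower (0) stayed within 1.5 times the main counts under all of them, and the log2 fold changes of CCPG1 (0.42 to 0.63), SQSTM1 (2.33 to 2.77), TAX1BP1 (0.79 to 1.04) and OPTN (0.83 to 1.19) kept an FDR under 0.05. The cause of the changes below was not tested. With totals that leave out the mtDNA-encoded mRNAs, 1 receptor was past the fold limit, the further receptors were 3 higher and 4 lower, 1 ATG8 gene and 1 kinase or partner were lower, and NBR1 was at -0.01. With no filter, 5 further receptors were higher, and with median ratio scaling 1 kinase or partner was lower. With each library left out, receptors past the fold limit numbered 1 to 2 (1 without CON replicate 3 or CDCA replicate 3), further receptors higher 5 to 6 (5 without CON replicate 3 or CDCA replicate 1) and kinases or partners lower 0 to 1 (1 without CDCA replicate 1). TEX264 lay between -0.22 and 0.12 (0.12 without CON replicate 2 and 0.02 without CON replicate 3), and at 0.04 for its highest transcript. The replicate numbers gave no sign of pairing the libraries. Deviations from the group means of same-numbered libraries had correlations of -0.0353, -0.0916 and -0.0509 across genes, and no library correlated best with its own number. With the replicate block, 6 receptors were higher, as TOLLIP passed (0.40, limma FDR 0.0058), 1 kinase or partner was lower, and over all genes 2316 were higher and 1902 lower. Without counts, what depth limits could not be given.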
